A study of Mus musculus with 24 samples.

Results

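Natural killer (NK) cells of 2 phenotypes from the same kind of tumour were compared: cells with the integrin CD11b and the early activation marker CD69, and cells with the TNF receptor family member CD27 and no CD69. The comparison used 12 of the 24 libraries of the study, the 6 titled CD11b+ CD69+ and the 6 titled CD27+ CD69-. All libraries came from wild-type female B6 mice that carried B16F10 tumours, grown from a mouse melanoma line placed under the skin of the flank, and were made on day 14 from 100 sorted cells each. No treatment, transgene or deletion is given in the labels for any group. The labels do not say which gates beyond CD11b, CD27 and CD69 defined an NK cell, and they give melanoma as the cell type of every sample, while the design text names the NK populations. The other populations, CD11b+CD69- and CD27+CD69+, had 6 libraries each; they served to tell genes that NK libraries in general contain from genes found mainly in one population. The study's title concerns IL-2 and IL-15 signalling and the production of FLT3 ligand by NK cells, so Flt3l and the receptor chains of these cytokines were described whatever their values.

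Mouse NK cells pass from a CD27-bearing, less mature state to a CD11b-bearing, mature state, and along this path they gain granzymes, killer lectin-like receptors and the sphingosine phosphate receptor that lets them leave tissues. CD69 appears early after activation and, by pulling the receptor S1PR1 from the surface, holds lymphocytes in tissue. The 2 phenotypes compared differ in both respects at once, so a difference between them cannot be assigned to CD69 or to maturation from these 12 libraries alone. The difference between the remaining populations, CD27+CD69+ minus CD11b+CD69-, shares no library with the main one and is set beside it. A gene with the same sign in both is described as going with CD69. A gene with opposite signs is described as going with CD11b against CD27. RNA of other cells in both CD27+ populations can give opposite signs as well, and its part was not tested.

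Total counts in the 12 libraries ran from 1213914 to 2461000, so that 3 counts, taken as the floor of detection, corresponded to 1.23 to 2.47 CPM, the library-scaled count used as the unit of level. RNA of other cells was unevenly present. Fibroblast markers other than Thy1, which NK cells also express, summed to between 0 and 0.901 CPM in CD11b+CD69+ libraries and to between 318 and 12482 CPM in CD27+CD69- libraries, and 11 of the 14 fibroblast markers, Col1a1, Col3a1 and Dcn among them, had 0 counts in CD11b+CD69+ libraries. The 10 melanoma markers summed to at most 28.0 CPM in CD11b+CD69+ libraries, against 17.4 to 10386 CPM in CD27+CD69- libraries, where replicates 4, 5 and 6 exceeded 1000 CPM. The sum of 9 NK cell markers was 18147 to 19952 CPM against 8241 to 14263 CPM. With Thy1 the fibroblast sums were 33.7 to 66.3 and 376 to 12600 CPM. These fibroblast, melanoma and NK sums differed between the populations (exact permutation test, two-sided, adjusted p = 0.00722, 0.0108 and 0.00722 over 10 marker lists, with 0.00216 the smallest unadjusted p that the arrangements of 12 libraries allow). Without CD11b+CD69+ replicate 3 the melanoma sum did not pass (adjusted p = 0.0563). The macrophage, neutrophil, dendritic cell, B cell and endothelial sums did not pass the test (adjusted p from 0.321 to 0.734). In CD11b+CD69+ libraries Pecam1 alone had a median of 100.2 CPM, where the endothelial sum had a median of 100.4 CPM. Vwf, Kdr, Egfl7 and Cdh5 had 103, 39, 31 and 16 counts over CD27+CD69- libraries, against 1, 0, 0 and 0. Each had a median of 0 CPM in CD27+CD69- libraries and was too low to be tested singly. All 9 NK markers were detected in both populations. In bulk libraries fewer NK cells, less RNA per NK cell and lower expression of the NK markers cannot be told apart. CD27+CD69+ libraries, with a median of 0 CPM of fibroblast markers other than Thy1, had an NK marker sum of 13164 to 15531.5 CPM (median 14009). How far foreign RNA moved the differences below was not tested for single genes. Of the called genes named by rule, 36 lost the call without CD27+CD69- replicates 4, 5 and 6, which is given beside each of them that is described.

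**Figure D1:**
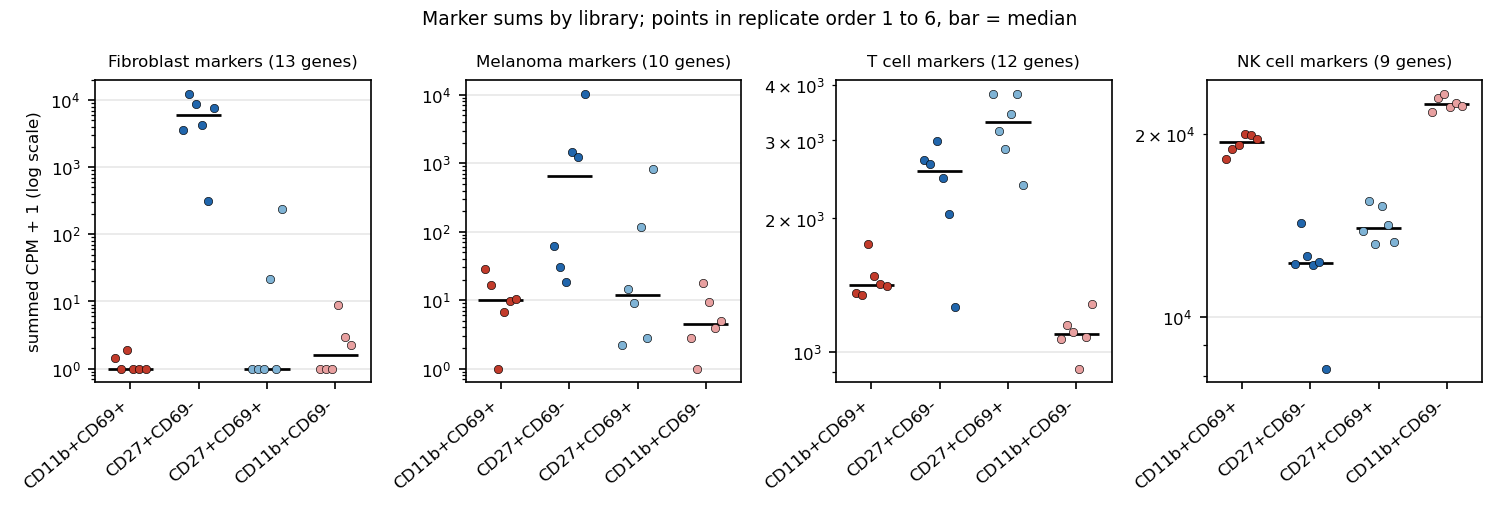
Summed CPM plus 1 (log scale) of marker genes of 4 cell types in each of the 24 libraries, 6 per population in replicate order, with the median as a bar. CD27+CD69- libraries hold 318 to 12482 CPM of fibroblast markers where CD11b+CD69+ libraries hold at most 0.901 CPM, and their NK marker sum does not reach that of any CD11b+CD69+ library.

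Of 10536 genes tested, 248 were higher (2.35%) and 401 lower (3.81%) in CD11b+CD69+ than in CD27+CD69- cells at an adjusted p under 0.05, together 649 (6.16%). To look past stromal RNA, genes were counted again if they averaged 10 CPM or more over the 12 libraries of the other populations. Of these 8037 genes, 243 were higher (3.02%) and 176 lower (2.19%), together 419 (5.21%). Nearly all rises thus passed the screen, 243 of 248, while 225 of the 401 falls did not; 140 of the falls were of genes with 0 counts in CD11b+CD69+ libraries. The median log2 difference was -0.05 over all genes and -0.01 over the screened ones. Without CD27+CD69- replicates 4, 5 and 6, 112 screened genes were higher and 103 lower. With the log2 fibroblast marker sum as a covariate 0 genes were called by edgeR (461 at an unadjusted p under 0.05), but 86.6% of the variance of that sum lay between populations, so that sum and the population cannot be told apart. Of 113 called genes picked by the naming rule, 109 kept their direction in that fit, 96 stayed called whichever single library was left out, and 77 stayed called without replicates 4, 5 and 6.

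The sort was visible in the transcripts. Itgam, which encodes CD11b (GRCm38, chr7:128062640-128118491), was at 32.5 to 66.0 CPM (median 48.1) in CD11b+CD69+ and 2.42 to 19.7 CPM (median 14.5) in CD27+CD69- libraries. The ranges did not overlap, and the difference of 1.97 on the log2 scale was called (SE 0.50, adjusted p = 0.0147), though not without replicates 4, 5 and 6 (1.93, adjusted p = 0.114). Cd27 (chr6:125232622-125237010) was at 84.4 to 188 CPM (median 137) against 179 to 353 CPM (median 287). It fell by 0.98 (SE 0.22, adjusted p = 0.00560), and the ranges met only at their ends. Cd69 (chr6:129267325-129275436) lay at 1033 to 1202 CPM (median 1075) against 380.3 to 902 CPM (median 758). Every CD11b+CD69+ library was above every CD27+CD69- library, but the log2 difference of 0.59 (SE 0.20) did not pass the threshold (adjusted p = 0.0904), which it did narrowly with DESeq2, with limma-voom and in a fit to the 12 libraries alone (adjusted p = 0.0483, 0.0491 and 0.0417). Over the 4 populations the median of Cd69 was highest in the CD27+CD69+ libraries at 1117 CPM, followed by 1075 CPM for CD11b+CD69+, 758 CPM for CD27+CD69- and 579 CPM for CD11b+CD69-. All 4 populations, those sorted as CD69- included, held Cd69 transcript.

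Genes that define NK cells were higher in CD11b+CD69+ libraries as a group. Of 15 tested members of the NK identity list 13 were higher and 0 lower, with a median log2 difference of 0.59, and 10 were called without replicates 4, 5 and 6 of CD27+CD69-. Ncr1, the activating receptor NKp46, was at 1902 to 2287 CPM (median 2152) against 1045 to 1499.6 CPM (median 1236). No library overlapped (log2 difference 0.77, SE 0.11, adjusted p = 2.07e-05). Klrb1c, which encodes the NK1.1 antigen, gave 1399 to 1713 CPM (median 1628) against 662 to 1323 CPM (median 965) and a difference of 0.70 (SE 0.11, adjusted p = 0.000146). Fcer1g, a signalling adaptor of Fc and activating receptors, rose by 0.80, Klre1 by 0.75 and the granule membrane protein gene Nkg7 by 0.59. Ncr1, Klrb1c, Klre1 and Nkg7 are also members of the NK marker sum described above, which differed by 0.71 on the log2 scale. The sum is therefore no separate measure of them.

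Of 14 tested activating receptor genes 7 were higher and 1 was lower, and 6 of 14 inhibitory or checkpoint receptor genes were higher. Klra9, an inhibitory-type Ly49 gene, was at 472 to 922 CPM (median 715) against 80.8 to 314 CPM (median 191), without overlap. Its log2 difference was 1.88 (SE 0.21, adjusted p = 1.42e-06). Klra8, which encodes Ly49H, a receptor for a cytomegalovirus protein, rose by 1.47 (SE 0.20, adjusted p = 2.37e-05), Klra3 by 1.63 and Klra4 by 1.06. Reads of Klra genes can be shared among close copies, so single members are uncertain. Lilr4b, an immunoglobulin-like receptor gene, was at 251 to 445 CPM (median 403) against 94.0 to 174 CPM (median 116), and its ranges did not overlap (log2 difference 1.58, SE 0.35, adjusted p = 0.00477). Unlike the Klra genes, Lilr4b also had a positive difference of 1.65 between CD27+CD69+ and CD11b+CD69- cells (adjusted p = 0.00208).

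Of 20 tested genes of cytotoxic granules 14 were higher and 1, the lysosomal membrane gene Lamp1, was lower, with a median log2 difference of 0.66; 9 were higher without replicates 4, 5 and 6. Gzmb, the granzyme that cleaves caspases in the target cell (chr14:56258838-56262260), was at 4687 to 9109.8 CPM (median 7602) in CD11b+CD69+ and 452 to 1421 CPM (median 1150.4) in CD27+CD69- libraries. The lowest CD11b+CD69+ library was above the highest CD27+CD69- library, and the log2 difference was 2.81 (SE 0.29, adjusted p = 9.75e-07). Prf1, the pore-forming perforin, lay at 1886 to 2659 CPM (median 2172) against 302 to 928 CPM (median 628). Again no library overlapped (log2 difference 1.82, SE 0.19, adjusted p = 8.36e-07). Gzma rose by 1.34 from a higher level, 8295 to 10949 CPM (median 9693) against 2623 to 4574 CPM (median 4103). Cst7, the cathepsin inhibitor cystatin F, rose by 1.44 (SE 0.16, adjusted p = 9.75e-07) and, unlike the granzymes A and B and perforin, showed no called difference between the other populations (0.17, adjusted p = 0.576).

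Gzmc, a granzyme gene close to Gzmb (chr14:56231441-56234656), followed CD69. It was at 119.8 to 472 CPM (median 233) in CD11b+CD69+ libraries and 5.81 to 24.9 CPM (median 13.4) in CD27+CD69- libraries. The ranges were apart, with a log2 difference of 4.18 (SE 0.76, adjusted p = 0.00114) that was not called with limma-voom. Between CD27+CD69+ (27.5 to 1164 CPM (median 259)) and CD11b+CD69- libraries (0 to 36.2 CPM (median 10.8)) it differed by 4.81 in the same direction (SE 0.77, adjusted p = 0.000149), whereas Gzmb (-2.58), Prf1 (-2.53) and Gzma (-2.24) differed in the opposite direction. The largest rises that passed the screen were, in order, those of Ccl9, Gzmc, Khdc1b, Spp1, Clec4e, Entpd1, Klrg1, Gzmb, Cym and Rab20. Khdc1b was at 16.8 to 70.9 CPM (median 49.9) against 0 to 6.78 CPM (median 1.06) (log2 difference 4.13, SE 0.65, adjusted p = 0.000117). Entpd1, the ectoenzyme CD39 that degrades extracellular ATP, was at 95.7 to 184 CPM (median 104) against 2.03 to 34.9 CPM (median 13.7), with no overlap (log2 difference 2.94, SE 0.38, adjusted p = 9.74e-06). Spp1, osteopontin, rested on 1 library: CD11b+CD69+ replicate 3 had 1363 CPM against a median of 84.7 CPM, and without it the difference of 3.61 dropped to 1.51 and was not called (adjusted p = 0.153). Clec4e, a pattern receptor gene, rose by 3.04 with an adjusted p of 0.0434, and lost its call when any one of CD11b+CD69+ replicates 1, 2 and 6 or CD27+CD69- replicates 3 to 6 was left out (adjusted p from 0.0507 to 0.0916). Without CD27+CD69- replicates 4, 5 and 6 together, Clec4e, Spp1 and Rab20 were not called (adjusted p = 0.247, 0.0716 and 0.0705).

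**Figure D2:**
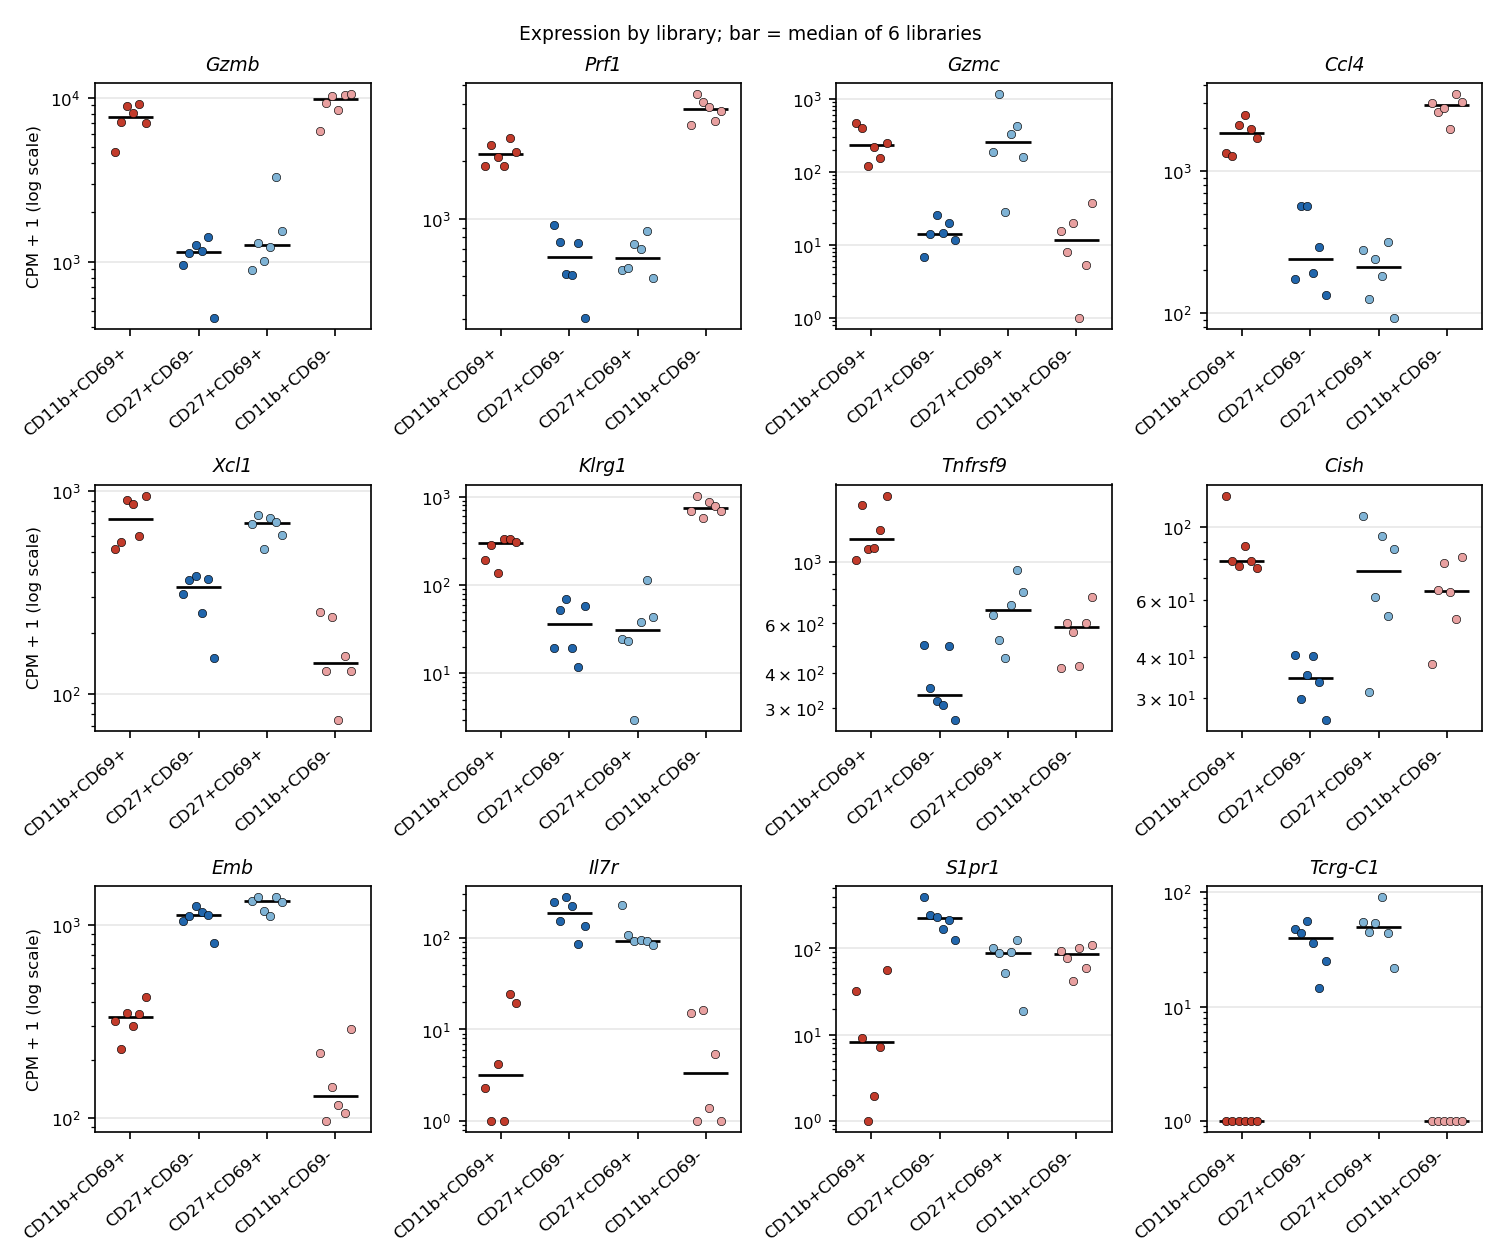
CPM plus 1 (log scale) of 12 genes in each of the 24 libraries, 6 per population, with the median as a bar. Gzmb, Prf1, Ccl4 and Klrg1 are high in both CD11b+ populations, Gzmc and Xcl1 in both CD69+ populations, Emb, Il7r and Tcrg-C1 in both CD27+ populations, and S1pr1 is lowest in CD11b+CD69+ libraries.

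Chemokines and cytokines that act on dendritic cells and other leukocytes rose in part, and FLT3 ligand was not called. Of 14 tested effector cytokine and chemokine genes 8 were higher and 1, Ltb, lower, with a median log2 difference of 0.90, and of 8 tested genes for factors acting on dendritic cells 6 were higher and 0 lower. Ccl4, a chemokine that attracts leukocytes, was at 1267 to 2494 CPM (median 1842) against 132 to 569 CPM (median 239). Every CD11b+CD69+ library was far above the highest CD27+CD69- library, and the log2 difference was 2.50 (SE 0.34, adjusted p = 3.71e-05). Ccl3 gave 498 to 1256 CPM (median 695) against 118 to 422 CPM (median 193) and Ccl5 2326 to 3498 CPM (median 3057) against 1166 to 2281 CPM (median 1988). Both were without overlap, with differences of 1.79 (SE 0.32, adjusted p = 0.000823) and 0.68 (SE 0.13, adjusted p = 0.000920). Ccl9 was detected at 0 to 94.0 CPM (median 14.1) against 0 to 4.10 CPM (median 0). In 1 CD11b+CD69+ library it had 0 counts, and the log2 difference of 5.02 (SE 1.00, adjusted p = 0.00170) was not called with limma-voom.

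Xcl1, the chemokine that draws XCR1-bearing dendritic cells, was at 516 to 950.3 CPM (median 730.1) against 150.1 to 381 CPM (median 337). No CD27+CD69- library reached the lowest CD11b+CD69+ library (log2 difference 1.26, SE 0.24, adjusted p = 0.000951). Xcl1 also differed by 2.04 between CD27+CD69+ and CD11b+CD69- cells (adjusted p = 9.32e-07), while Ccl3, Ccl4 and Ccl5 differed by -5.10, -3.78 and -1.97. Csf2, the myeloid growth factor GM-CSF, was under the screen, with 0 to 117 CPM (median 37.1) against 0 to 3.19 CPM (median 0.913). It had 0 counts in 1 CD11b+CD69+ library, and the rise of 5.20 (SE 1.18, adjusted p = 0.00519) was not called with limma-voom or without CD27+CD69- replicates 4, 5 and 6 (4.99, adjusted p = 0.0834). Flt3l, the growth factor of dendritic cells that the study's title names, lay at 25.6 to 59.5 CPM (median 39.8) in CD11b+CD69+ and 14.0 to 74.6 CPM (median 41.2) in CD27+CD69- libraries. The ranges overlapped almost fully, and the log2 difference was -0.03 (SE 0.30, adjusted p = 0.983), with a sign that changed in several alternatives. In CD27+CD69+ libraries Flt3l had a median of 61.3 CPM and in CD11b+CD69- libraries of 51.8 CPM, and these did not differ beyond their spread (0.25, SE 0.30, adjusted p = 0.688). An annotated gene overlaps its exons, so its reads carry that uncertainty.

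IL-2 and IL-15 act through the shared chains encoded by Il2rb and Il2rg, to which Il2ra adds high affinity for IL-2, and signal through JAK kinases and STAT5. Of 16 tested genes of this pathway 2, Il2rg and Stat3, were higher and 0 lower, with a median of 0.26. Il2rg was at 866 to 1116 CPM (median 947) against 372 to 731 CPM (median 645). The libraries did not overlap (log2 difference 0.68, SE 0.11, adjusted p = 0.000213). Il2rb was at 1670.4 to 2131 CPM (median 1912) against 661 to 2381 CPM (median 1189.8), where 1 CD27+CD69- library had the highest value of all 12, and its difference of 0.52 was not called (SE 0.17, adjusted p = 0.0763), although it was called in some alternatives, among them DESeq2, limma-voom and thinned counts (adjusted p = 0.0395, 0.0195 and 0.0497) and a fit without CD27+CD69- replicate 1 (adjusted p = 0.000410). Il2ra was low, at 6.98 to 53.8 CPM (median 12.0) against 0 to 8.72 CPM (median 2.59). Its difference of 2.89 (SE 1.02) did not pass the threshold (adjusted p = 0.103), and did so with DESeq2, limma-voom and thinned counts (adjusted p = 0.0407, 0.0370 and 0.0302). Il15ra showed 19.1 to 80.6 CPM (median 50.6) against 23.7 to 71.2 CPM (median 48.6), a difference of 0.02 (SE 0.38, adjusted p = 0.991). Stat3 rose by 0.64 (SE 0.16, adjusted p = 0.0159), but not past the threshold without replicates 4, 5 and 6 (0.64, adjusted p = 0.0709).

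Among 22 tested genes known to respond to STAT5, 7 were higher and 0 lower; 2 were higher without replicates 4, 5 and 6. Cish, the STAT5-induced inhibitor of cytokine signalling, was at 73.8 to 124 CPM (median 77.9) against 24.7 to 39.7 CPM (median 33.5). Every CD11b+CD69+ library lay above the CD27+CD69- range, and the log2 difference was 1.37 (SE 0.25, adjusted p = 0.000810). The gene of the receptor 4-1BB, a co-stimulator of lymphocytes (Tnfrsf9), was at 1008 to 1719.6 CPM (median 1206) against 271 to 499.5 CPM (median 333). It too was apart (log2 difference 1.81, SE 0.19, adjusted p = 8.36e-07), and its CD11b+CD69+ median was the highest of the 4 populations, with 671 CPM in CD27+CD69+ and 581 CPM in CD11b+CD69- libraries. Neither Cish nor Tnfrsf9 differed between those populations by a called amount (0.21 and 0.27, adjusted p = 0.693 and 0.424). The D cyclin genes Ccnd2 and Ccnd3 rose by 0.67 and 0.68 (adjusted p = 0.00244 and 0.00160), and lost the call without replicates 4, 5 and 6 (0.46 and 0.48, adjusted p = 0.0931 and 0.0509).

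Interferon-induced antiviral genes rose in part. Of 33 tested genes of the type I interferon response 5 were higher, Ifi44, Mx1, Oas1a, Trim30a and Usp18, and 0 lower, with a median of 0.33; without replicates 4, 5 and 6 only Mx1 was called. Usp18, a feedback inhibitor of interferon signalling, was at 107 to 392 CPM (median 192) against 55.3 to 106 CPM (median 71.8), just without overlap. Its log2 difference was 1.54 (SE 0.39, adjusted p = 0.0135; 1.33 and 0.189 without these libraries). Mx1, a dynamin-like antiviral GTPase, was at 27.9 to 80.8 CPM (median 45.4) against 2.82 to 18.9 CPM (median 16.3), with a difference of 1.87 (SE 0.45, adjusted p = 0.00849). Trim30a rose by 0.86 (SE 0.19, adjusted p = 0.00486; 0.69 and 0.126 without them). Ifi44 was at 28.8 to 149 CPM (median 62.7) against 11.5 to 37.3 CPM (median 27.6) and rose by 1.52 (SE 0.43, adjusted p = 0.0341). Leaving out CD11b+CD69+ replicate 4 or 6, or CD27+CD69- replicate 3, 5 or 6, took the Ifi44 call away (adjusted p from 0.0618 to 0.106). Between CD27+CD69+ and CD11b+CD69- cells 20 of the 33 genes were higher and 0 lower, where 11.0% of all genes were called; Ifi44 had no counts at all in CD11b+CD69- libraries.

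Promoter sequence was looked at for the called members because interferon acts through a known element, the interferon-stimulated response element. The RefSeq table (GRCm38.p6) held 3 of the 5 (not Mx1 and Usp18), shown as the 250 bases before the transcription start, on the minus strand. The motif searched on both strands was GAAA, any 2 bases and GAAA again, and capitals mark its matches.
Oas1a, chr5:120907526-120907775: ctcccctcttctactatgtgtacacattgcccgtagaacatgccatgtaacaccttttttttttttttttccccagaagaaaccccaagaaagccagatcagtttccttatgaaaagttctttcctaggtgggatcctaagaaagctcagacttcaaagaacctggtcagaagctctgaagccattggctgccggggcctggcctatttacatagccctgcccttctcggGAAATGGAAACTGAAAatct
Trim30a, chr7:104465194-104465443: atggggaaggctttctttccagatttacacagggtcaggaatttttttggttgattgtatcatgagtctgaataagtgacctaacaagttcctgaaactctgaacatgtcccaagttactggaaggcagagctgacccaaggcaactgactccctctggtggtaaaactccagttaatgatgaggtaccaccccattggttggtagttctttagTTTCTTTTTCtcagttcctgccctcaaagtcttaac
Ifi44, chr3:151749911-151750160: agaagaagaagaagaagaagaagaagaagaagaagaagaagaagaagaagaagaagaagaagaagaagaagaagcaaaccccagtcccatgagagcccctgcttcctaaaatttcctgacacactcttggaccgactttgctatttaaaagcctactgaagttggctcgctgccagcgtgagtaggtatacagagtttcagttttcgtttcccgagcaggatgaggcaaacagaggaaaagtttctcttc

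Oas1a held 2 overlapping matches that began at -20 and -14 from the start, and Trim30a 1 that began at -36, while a further Trim30a start in the table and Ifi44 held none in this window. The search took only this fixed spacing. The Ifi44 window holds TTTC units at other spacings, which it does not mark. Of 24 list members with a promoter listed, 11 held a match (45.8%), against 3.46% of all 27025 genes. A match is a description of the letters only, and is shared by members that were not called, such as Isg15 and Rsad2.

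Of 18 class I presentation genes 6 were higher and 0 lower (3 higher without replicates 4, 5 and 6), and of 14 tested Ifi200 and Schlafen genes 4 were higher and 0 lower (0 and 1 without them). H2-T23, a nonclassical class I gene whose product presents a peptide to the NKG2 receptors, was at 1084 to 1382 CPM (median 1199) against 596 to 865 CPM (median 775). The ranges were apart, with a log2 difference of 0.69 (SE 0.09, adjusted p = 1.52e-05). H2-K1 and H2-Q7 rose by 0.49 and 0.70 (adjusted p = 0.000942 and 0.000146), with reads that class I copies may share. GTPases induced by interferon gamma did not follow: 0 of 17 tested were higher and 3 lower. Tgtp1 was at 2.89 to 14.7 CPM (median 6.98) against 31.8 to 350.4 CPM (median 80.8), without overlap (log2 difference -3.81, SE 0.57, adjusted p = 7.41e-05), and its close copy Tgtp2 fell by 1.48 (adjusted p = 0.00160). Irgm1 fell by 1.03 (adjusted p = 0.0205), but CD27+CD69- replicate 5 alone had 1002 CPM of it, and without that library the difference was -0.66 and not called (adjusted p = 0.0988), nor was it without replicates 4, 5 and 6 (-0.69, adjusted p = 0.197).

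Genes of mature NK cells were higher in part. Of 20 members 7 were higher and 1 lower (5 and 2 without CD27+CD69- replicates 4, 5 and 6), with a median of 0.55. Between CD27+CD69+ and CD11b+CD69- cells 0 were higher and 17 lower. Klrg1, an inhibitory lectin-like receptor of terminally mature NK cells, was at 137 to 330.2 CPM (median 294) against 10.7 to 69.1 CPM (median 35.0). The libraries did not overlap (log2 difference 2.81, SE 0.52, adjusted p = 0.00114), and CD11b+CD69- libraries were higher still, at 565 to 1023 CPM (median 741). Irf8, a transcription factor gene of mature NK cells, was at 1101 to 1583 CPM (median 1266) against 284 to 664 CPM (median 493), apart by 1.42 (SE 0.16, adjusted p = 1.02e-06). S1pr5, the sphingosine phosphate receptor of NK cell egress, was at 56.1 to 151 CPM (median 86.1) against 4.95 to 26.5 CPM (median 22.1) and rose by 2.31 (SE 0.45, adjusted p = 0.00127). Cym rose by 2.72 (adjusted p = 0.0217), though not past the threshold without CD11b+CD69+ replicate 5 (2.29, adjusted p = 0.0655) or without CD27+CD69- replicates 4, 5 and 6 (2.06, adjusted p = 0.195), nor in a fit to the 12 libraries alone. Rasgrp2, a guanine nucleotide exchange factor for the integrin regulator Rap1, was the 1 member that fell, at 6.03 to 24.3 CPM (median 16.7) against 19.0 to 47.9 CPM (median 32.6) (log2 difference -1.09, adjusted p = 0.0371). Its call was lost when any one of CD11b+CD69+ replicates 1, 2 and 4 or CD27+CD69- replicates 1 to 4 was left out (adjusted p from 0.0540 to 0.0936); between CD27+CD69+ and CD11b+CD69- cells it differed by -3.25 (adjusted p = 1.11e-07).

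Of 18 genes of less mature NK cells 7 were lower and 2, Id2 and Xcl1, higher, with a median of -0.72. Emb, an immunoglobulin family protein, was at 228 to 426 CPM (median 332) in CD11b+CD69+ and 806 to 1266 CPM (median 1126) in CD27+CD69- libraries. Every CD27+CD69- library was above every CD11b+CD69+ library (log2 difference -1.74, SE 0.20, adjusted p = 1.66e-06). Il7r, the IL-7 receptor alpha chain, was at 0 to 23.4 CPM (median 2.22) against 84.9 to 277 CPM (median 187). In 2 CD11b+CD69+ libraries it had 0 counts, and the difference was -4.53 (SE 0.83, adjusted p = 0.000949). Ikzf2, which encodes the transcription factor Helios, was at 3.44 to 39.6 CPM (median 29.5) against 66.8 to 167 CPM (median 119), apart by -2.10 (SE 0.32, adjusted p = 8.45e-05). Among 29 transcription factor genes 4 were higher, Bhlhe40, Eomes, Id2 and Irf8, and 3 lower, Id3, Ikzf2 and Rora. Id2, needed for the innate lymphoid lineages, was at 2156 to 3083 CPM (median 2436) against 856 to 1617 CPM (median 1224), with no overlap (log2 difference 1.02, SE 0.12, adjusted p = 1.86e-06).

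Receptors that place cells in tissue differed in both directions. S1pr1, through which lymphocytes follow sphingosine phosphate out of tissue (chr3:115710433-115715072), was at 0 to 54.8 CPM (median 7.16) in CD11b+CD69+ and 123 to 392 CPM (median 224) in CD27+CD69- libraries. The ranges were apart and the log2 difference was -3.74 (SE 0.66, adjusted p = 0.000759). The other populations held a like level between these, 17.7 to 124 CPM (median 88.3) in CD27+CD69+ and 41.1 to 109 CPM (median 84.9) in CD11b+CD69-, and did not differ beyond their spread (-0.02, SE 0.59, adjusted p = 0.994). S1pr1 and S1pr5, both egress receptors, thus differed in opposite directions. Of 13 tested egress and homing receptor genes 1 was higher and 3 lower, and of 13 chemokine and oxysterol receptor genes 2 were higher and 4 lower. Gpr183, the receptor for oxysterols, was at 9.80 to 82.9 CPM (median 48.4) against 153 to 284 CPM (median 244), without overlap (log2 difference -2.32, SE 0.37, adjusted p = 0.000161). Cxcr6, a receptor of tissue-resident lymphocytes, was at 0 to 12.0 CPM (median 5.18) against 25.5 to 178 CPM (median 68.2), with a difference of -3.73 (SE 0.90, adjusted p = 0.0107). P2ry14 rose by 1.17 (adjusted p = 0.00116). Rgs1, a brake on chemokine receptor signalling, was at 1771 to 4204 CPM (median 2859) against 1094 to 1790.2 CPM (median 1308), a rise of 1.09 (SE 0.15, adjusted p = 2.27e-05), where 1 library of each population lay inside the range of the other.

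T cell receptor gamma chain transcripts separated the populations by sort. Tcrg-C1 (chr13:19214103-19217024) had 0 counts in all 6 CD11b+CD69+ libraries and 13.7 to 55.0 CPM (median 39.2) in CD27+CD69- libraries, at least 164-fold lower against a floor of 3 counts over the group. Tcrg-C2 and the variable segment Trgv2 also had 0 counts in CD11b+CD69+ libraries, at least 255-fold and 95.4-fold lower. Tcrg-C4 was at 0 to 20.6 CPM (median 4.97) against 81.7 to 175 CPM (median 109), with no overlap (log2 difference -3.82, SE 0.81, adjusted p = 0.00380). Tcrg-C1, Tcrg-C2 and Trgv2 were likewise without counts in all CD11b+CD69- libraries, and were at 21.0 to 89.8 CPM (median 48.8), 36.3 to 164 CPM (median 96.3) and 11.5 to 50.4 CPM (median 32.5) in CD27+CD69+ libraries. Constant gene reads can be shared among gamma copies. Other T cell markers moved with them: 8 of the 10 tested of 12 markers were lower and 0 higher, Cd3e with 20 counts over the 6 CD11b+CD69+ libraries against 981, Cd3d with 166 against 2991 and Cd3g with 532 against 3575. Cd8a and Cd6 had 0 counts in CD11b+CD69+ libraries. The T cell marker sum was 1346 to 1747 CPM in CD11b+CD69+ and 1259 to 2998 CPM in CD27+CD69- libraries (exact permutation test, two-sided, adjusted p = 0.0346 over the 10 marker lists), and leaving out any one of 9 of the 12 libraries took that call away (adjusted p from 0.0519 to 0.0606). Trbc1 alone had medians of 953 and 917 CPM in CD11b+CD69+ and CD27+CD69- libraries, where the sums had medians of 1414 and 2555 CPM. A large part of the sum was thus a gene at a like level in both populations. Whether the CD3 and gamma chain transcripts come from T cells was not tested.

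Among the screened genes that fell, the 10 largest log2 differences were those of Sparc, Fn1, Cpe, Tcrg-C2, Tcrg-C1, Cd63, Cryab, Trgv2, Gpnmb and Gsn. Sparc and Fn1, matrix proteins of stromal cells, had 0 counts in CD11b+CD69+ libraries and were at 258 to 2813 CPM (median 1801) and 154 to 899.9 CPM (median 530.1) in CD27+CD69- libraries, at least 7204-fold and 2160-fold lower. They passed the screen on CD27+CD69+ replicates 4 and 6 (15.9 and 224 CPM of Sparc, 86.5 and 71.6 CPM of Fn1). Over the CD11b+CD69- libraries Sparc had 2 counts, and Fn1 had 0 in the other 10 libraries of the screen. Gpnmb, a melanosome protein, reached 4412 CPM in CD27+CD69- replicate 6, against at most 9.25 CPM in CD11b+CD69+ libraries, and its call was lost without replicates 4, 5 and 6, as were those of Cpe and Cryab. Cryab also lost it without CD27+CD69- replicate 6 alone and Cpe without CD11b+CD69+ replicate 6, which held its only count in that population (adjusted p = 0.0629 and 0.0651). Of genes under the screen the largest falls were in Col3a1, Col1a2, Rnase4, Serpinf1, Mpzl1 and Cd34, all with 0 counts in CD11b+CD69+ libraries. Col3a1, a fibrillar collagen, was at 0 to 2651 CPM (median 1356) in CD27+CD69- libraries, with 1 library at 0, and Cd34, a marker of stromal and endothelial cells, at 57.9 to 389 CPM (median 201), at least 5766-fold and 926-fold lower. Mpzl1 rested on a margin (adjusted p = 0.0444), and 9 of 12 single libraries left out took its call away (adjusted p from 0.0543 to 0.0735), as did leaving out replicates 4, 5 and 6 together (adjusted p = 0.157).

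With the screen set at 10 CPM in each of the other populations, 231 genes were higher and 133 lower of 7433. The 10 largest falls were then those of Ctsl, Ehd3, Tcrg-C4, S1pr1, Ugdh, Stmn1, Idh2, Tspan3, Rab32 and Tsc22d1, a set added after the values were seen; Idh2 and Tsc22d1 were not called without CD27+CD69- replicates 4, 5 and 6 (adjusted p = 0.226 and 0.253). Ctsl, the lysosomal protease cathepsin L, was at 2.87 to 29.3 CPM (median 6.71) against 151 to 604 CPM (median 379). The ranges were far apart (log2 difference -5.01, SE 0.60, adjusted p = 4.53e-06), and the CD27+CD69+ and CD11b+CD69- medians were 27.4 and 17.7 CPM. Ugdh, an enzyme that makes the sugar precursor of hyaluronan, was at 9.48 to 32.7 CPM (median 12.7) against 79.3 to 246 CPM (median 132) (log2 difference -3.22, SE 0.37, adjusted p = 1.42e-06). Tspan3, a tetraspanin, was at 9.86 to 34.4 CPM (median 27.4) against 84.8 to 366 CPM (median 166), with a difference of -2.92 (SE 0.43, adjusted p = 5.26e-05). For Ctsl and Ugdh every CD27+CD69- library was above all 18 others, in the same population that held the fibroblast and melanoma markers; the part of those cells was not tested.

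Of 21 tested replication and mitosis genes 4 were lower and 0 higher, with a median of -0.56. Birc5, Bub1 and Ccnb2 had 0 counts in CD11b+CD69+ libraries, at least 152-fold, 59.6-fold and 337-fold lower, and Ccnb2 was at 14.9 to 159.9 CPM (median 66.6) in CD27+CD69- libraries. Stmn1, a microtubule regulator, was at 1.43 to 21.2 CPM (median 9.92) against 39.9 to 178 CPM (median 77.0) (log2 difference -3.20, SE 0.63, adjusted p = 0.00150). Housekeeping lists gave few calls. Of 24 ribosomal protein genes and 20 oxidative phosphorylation genes 0 were called, with medians of -0.06 and -0.01; Rpl4 was at 1094 to 1353 CPM (median 1277) against 1083 to 1693 CPM (median 1497). Of 13 heat shock genes 0 were called, and Hspa1a spread from 5.34 to 267 CPM within CD11b+CD69+ libraries alone. Of 20 glycolysis and hypoxia genes 1, the glucose transporter gene Slc2a3, was higher by 1.70 (SE 0.32, adjusted p = 0.00113) and 1, Pgam1, lower, the latter not called without replicates 4, 5 and 6 (-0.21, adjusted p = 0.874).

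The remaining lists were mixed. Of 18 genes of ILC1 and residency 3 were higher and 5 lower, Bhlhe40 by 0.95 and Tmem176b by -4.96 on the log2 scale (adjusted p = 0.000109 and 9.99e-05). Of 18 integrin and adhesion genes 2 were higher, Itgam and Icam1, the latter by 1.02 (adjusted p = 0.00612). Of 17 TNF family genes 3 were higher and 2 lower (1 and 2 without replicates 4, 5 and 6). Of 15 NF-kB feedback genes 3 were higher and 1, Tnfaip8, lower (1 and 1 without these libraries); Relb and Traf1 rose by 1.09 and 0.74 (adjusted p = 0.00623 and 0.00750), and not past the threshold without replicates 4, 5 and 6 (0.82 and 0.54, adjusted p = 0.139 and 0.122). Of 17 other cytokine receptor genes 4 were higher and 3 lower (2 and 3 without them), Il12rb2 by 0.95 and Il6st by -5.72. Of 21 immediate early genes 1, Dusp2, was higher, and of 10 BCL2 family genes 2, Bcl2 and Bcl2l11. Bcl2 lost its call without CD11b+CD69+ replicate 3 or 6 or CD27+CD69- replicate 1, 3 or 6 (adjusted p from 0.0515 to 0.0787), and Bcl2l11 without CD27+CD69- replicate 4 or 6 (adjusted p = 0.0504 and 0.0518). Without replicates 4, 5 and 6 together Dusp2, Bcl2 and Bcl2l11 were not called (adjusted p = 0.127, 0.0734 and 0.196). Of 14 ATF4 target genes 1 was higher and 1 lower (0 and 0 without replicates 4, 5 and 6), of 12 TGF-beta genes 0 and 1, and of 11 RGS and purinergic genes 2, Entpd1 and Rgs1, and 0.

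**Figure D3:**
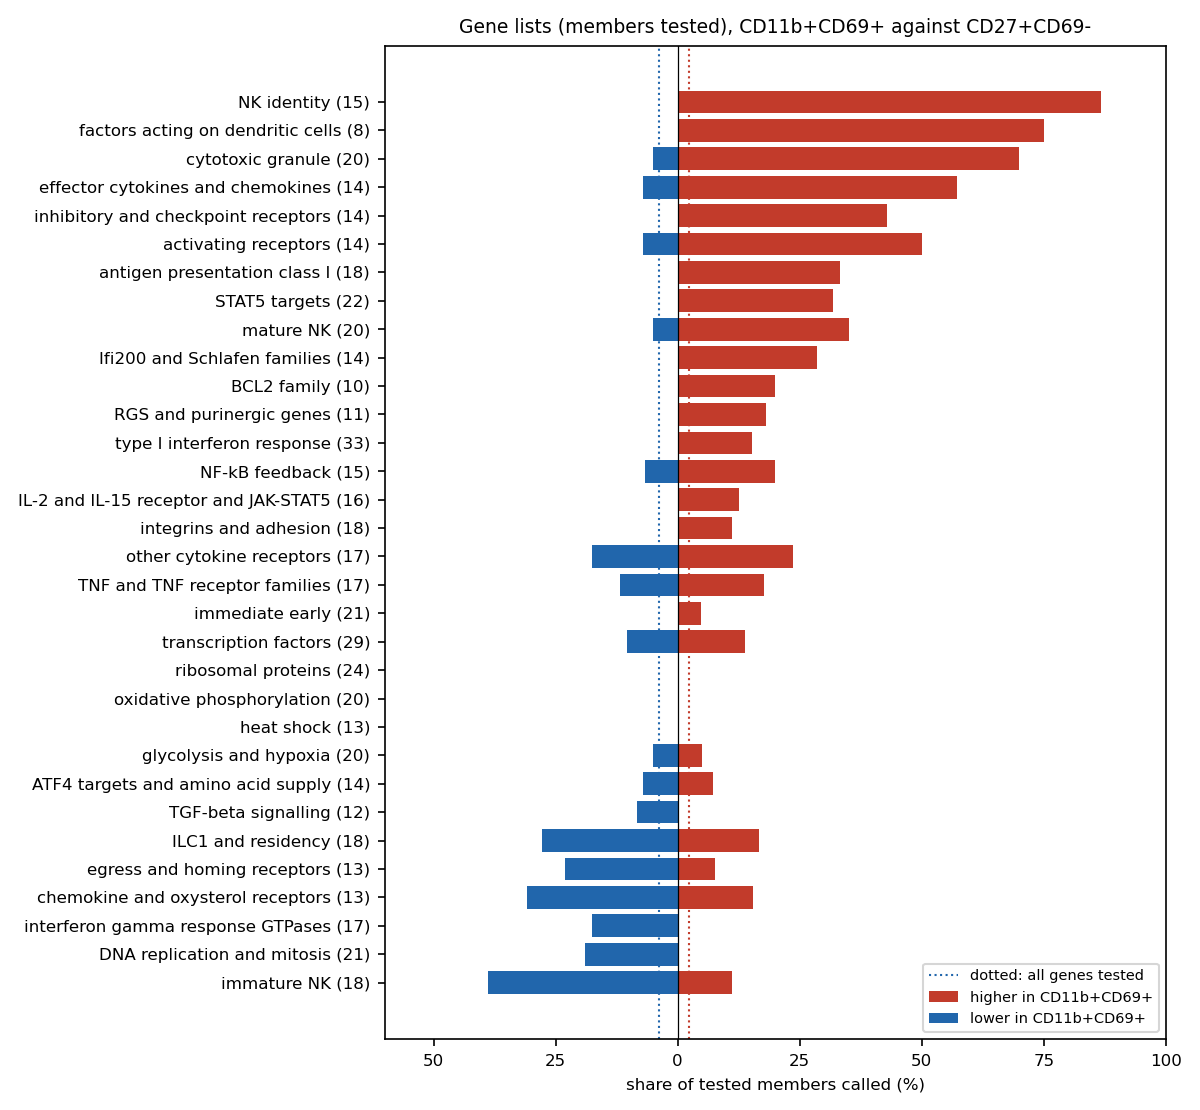
Share of the tested members of 32 gene lists (number tested in brackets) called higher (red, right) or lower (blue, left) in CD11b+CD69+ than in CD27+CD69- libraries, in percent, with the shares over all genes tested, 2.35% and 3.81%, as dotted lines. NK identity has 13 of 15 members higher and the list of less mature NK cells 7 of 18 lower, while ribosomal protein, oxidative phosphorylation and heat shock genes have none.

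Set beside the difference between the other populations, most called genes had the opposite sign (CD11b against CD27) and fewer the same sign (CD69). Of the 243 screened genes that were higher, 167 had the opposite sign in CD27+CD69+ minus CD11b+CD69- and 76 the same sign; 88 and 29 of these were called in both. Of the 176 that were lower, 142 had the opposite sign and 34 the same, 62 and 3 of them called in both. The screen used the libraries of this other difference, so a gene admitted through CD27+CD69+ alone is bound to be positive there. Genes of foreign RNA can take the opposite sign too. Gpnmb had 1716 counts in CD27+CD69+ and 62 in CD11b+CD69- libraries, and Sparc 499 and 2. How many of the opposite signs come from such RNA was not tested. With 10 CPM in each of the other populations, 159 of 231 rises had the opposite sign and 72 the same. Of these, 80 and 28 were called in both. Of 133 falls, 101 had the opposite sign and 32 the same, 35 and 2 of them called in both. Over all genes 11.0% were called in that difference. Named genes called in both with the same sign were Gzmc, Xcl1, Spp1, Lilr4b, Traf1, Usp18, Ifi44, Trim30a, Ifi203, Ifi209, Mndal, Slfn8, Psme2, H2-K1, H2-Q7 and H2-T23 among the rises and Rasgrp2 among the falls. Of these 16 rises, 10 lost the call in the main difference without CD27+CD69- replicates 4, 5 and 6: Spp1, Traf1, Usp18, Ifi44, Trim30a, Ifi203 (0.58, adjusted p = 0.214), Ifi209 (0.66, adjusted p = 0.138), Mndal (0.49, adjusted p = 0.0805), Slfn8 (1.09, adjusted p = 0.0640) and Psme2 (0.33, adjusted p = 0.164). Gzmb, Prf1, Gzma, Klrg1, Irf8, S1pr5, Entpd1, Ccl3, Ccl4, Ccl5 and Ccl9 among the rises, and Emb, Il7r, Ikzf2, Gpr183, Cxcr6, Tgtp1 and Tcrg-C4 among the falls, were called with opposite signs. Cish, Tnfrsf9, Cst7, Il2rg, Rgs1, S1pr1, Stmn1, Ctsl and Ugdh were called only in the main difference; for these the other difference lay between -0.25 and 1.03, which does not show that they were alike.

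**Figure D4:**
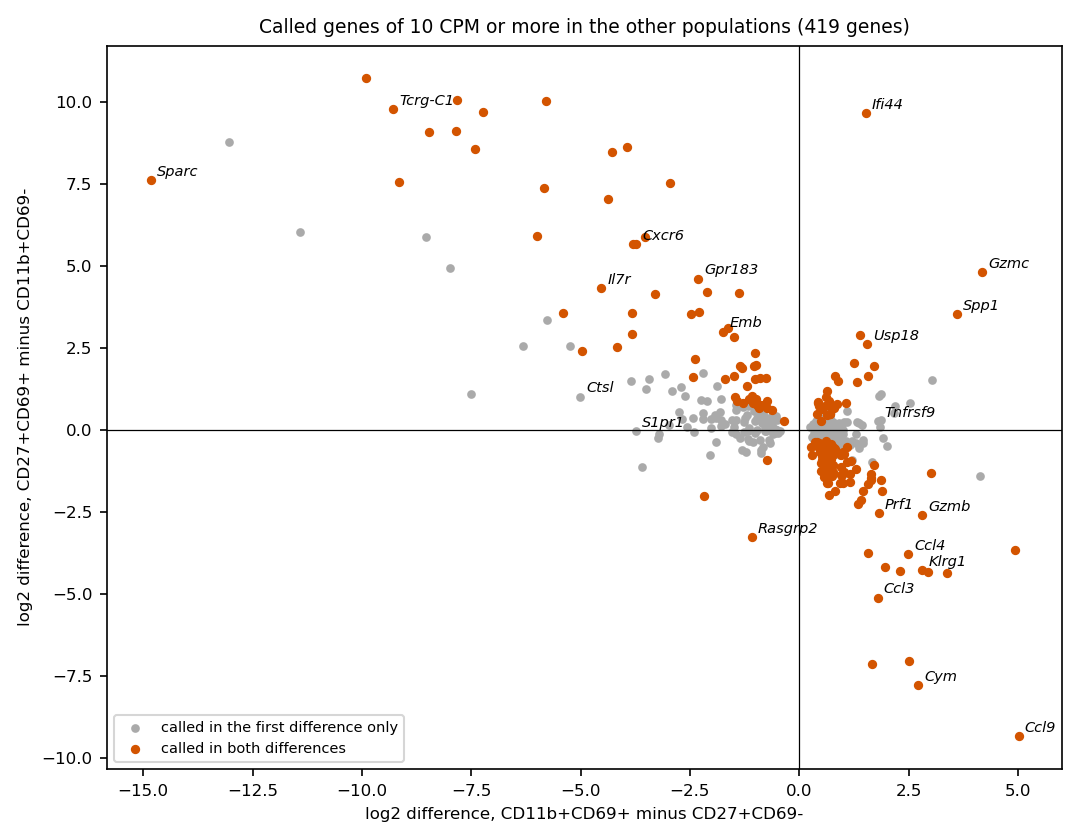
Log2 difference of the 419 called genes that passed the screen, CD11b+CD69+ minus CD27+CD69- (x axis) against CD27+CD69+ minus CD11b+CD69- (y axis), with genes called in both in orange; fitted values of genes without counts in a population, such as Sparc and Tcrg-C1, depend on the prior count. Gzmc lies in the quadrant of the same sign, while Gzmb, Ccl4 and Klrg1 lie at lower right and Emb, Il7r and Cxcr6 at upper left.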

How the data were processed

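The deposited values are whole-number counts of reads by Ensembl gene for 24 libraries, which the authors did not normalize. Per the labels' protocols, amplified full-length cDNA was made from 100 cells with SMART-Seq v4 and tagged with Nextera XT, without molecular identifiers, so floors cover counting error only. The submitters' processing notes name GRCm 38, HTSeq and Picard. The sources used here do not give the aligner, annotation release or strand setting. The labels do not say whether replicates came from separate mice, so p-values measure the spread between these samples, which may be technical.

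Of 53465 gene identifiers, 10536 passed filterByExpr (minimum count 10). Entries without a symbol held 0.174% of counts. A robust quasi-likelihood model (edgeR 4.0.16, R 4.3.3) was fitted to all 24 libraries with TMM factors (0.971 to 1.04) and 1 mean per population. Adjusted p-values are Benjamini-Hochberg values over these genes, called at 0.05. CPM are TMM-scaled, and fold changes are log2 differences of the fit. Marker sums were compared as log2 of CPM plus 1. Replicates differed by more than counting error (chi-square per degree of freedom 13.1 to 32.3 over 30 pairs). Gene positions are from GENCODE M21.

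On simulated counts for the comparison (10085 genes, 200 changed) the edgeR fit recovered 33% of log2 changes of 1 and 78% of log2 changes of 2, with 4 false calls. DESeq2 recovered 45% and 88% with 20 false calls, and limma-voom 26% and 73% with 1.

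Genes were named if they were sort markers, NK markers, Flt3l or IL-2 and IL-15 receptor chains; the 10 largest called differences each way above the screen; the 6 largest below it; or up to 4 called members of each of 32 lists by smallest p, with 2 where none was called. The largest differences needed a mean of 10 CPM and counts in 5 of 6 libraries. Clone-named genes and pseudogenes were left out. The comparison, its members and the lists were chosen with earlier results of these data known. DESeq2 1.42.0, limma 3.58.1 (voom), other scalings, filters and screens, thinned counts, a block, a fibroblast covariate and leaving libraries out were alternatives; leaving out the 3 melanoma-rich libraries was added after seeing the data.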

Additional observations from a re-analysis of the deposited data

Results flagged for a closer look

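In 253 groups of 6 libraries, each the values of a named gene or marker sum in 1 population, the highest or lowest library was compared with the range of the rest, and 29 lay far outside it by Dixon's criterion. Chance flags about 1 in 20 such groups if values are normally distributed, which CPM with many 0 values are not. The number of flags cannot be read against that rate. In CD11b+CD69+ libraries Cpe and neutrophil markers were flagged at values under the floor because the other libraries had 0.

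In CD27+CD69- libraries, replicate 6 stood apart most often. It had 10386 CPM of melanoma markers, 304 CPM of macrophage markers and the lowest NK marker sum, 8241 CPM. It was also highest for Gpnmb (4412 CPM), Cd63 (1447 CPM), Cryab (831 CPM), the co-chaperone gene Bag3 (121 CPM) and the glycolytic gene Pgam1 (201 CPM), and lowest for Cd69 (380 CPM). Replicate 5 was highest for the interferon gamma response genes Irgm1 (1002 CPM), Tgtp2 (634 CPM) and Tgtp1 (350.4 CPM) and for endothelial markers (219 CPM), and lowest for Rab32 (12.4 CPM). Replicate 1 was highest for Ccnd2 (907 CPM), and replicate 2 for Hspa1a (82.6 CPM) and Ccl9 (4.10 CPM).

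In CD11b+CD69+ libraries the flags were spread over replicates. Replicate 3 had 1363 CPM of Spp1, 1747 CPM of T cell markers and 3.15 CPM of Il6st. Replicate 1 was highest for Cish (124 CPM) and Asns (7.32 CPM) and lowest for Ikzf2 (3.44 CPM). Replicate 6 was highest for Entpd1 (184 CPM), Ccl9 (94.0 CPM) and Cpe (0.412 CPM), and replicate 5 for Cym (44.4 CPM), Tgfbr3 (6.57 CPM) and neutrophil markers (0.411 CPM).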

How the results depend on the processing

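Over the gene lists, 204 of 1472 counts of called members moved by over 1.5 times across the alternatives. Counts over all and screened genes moved by over 1.5 times in 4 alternatives. Without a low-count filter 1105 genes were called, 869 of them lower. With DESeq2, 66 of the screened falls had the same sign in the other difference. With the fibroblast sum as a covariate all counts, including those of each direction and sign, were 0. Without CD27+CD69- replicates 4, 5 and 6, 115 of all genes were higher, 215 screened genes were called (112 higher, 103 lower), and in the other difference 34 and 78 of the rises had the same and the opposite sign and 76 of the falls the opposite sign. This alternative has fewer samples. Leaving out 1 library gave 506 to 771 calls over all genes and 308 to 455 screened ones. The T cell sum differed by -0.81 to -0.56 with 1 library left out and passed the test in 3 of the 12 cases, and the melanoma sum by -5.95 to -4.12 not passing without CD11b+CD69+ replicate 3.

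Of 113 called genes named, 17 lost the call without some single library: Asns, Bcl2, Bcl2l11, Clec4e, Cpe, Cryab, Cxcr4, Cym, Ifi203, Ifi44, Irgm1, Mpzl1, Pgam1, Rasgrp2, Slc3a2, Spp1 and Tgfbr3. With limma-voom 19 lost it, Gzmc, Ccl9, Csf2, Sparc and Col3a1 among them. The covariate aside, 68 were called in every alternative in which they were tested. Filters left some untested, so that the fit to the 12 libraries alone tested 102 of the 113. The sign reversed for Col1a2 (8.70), Col3a1 (7.87), Serpinf1 (1.2), Il12rb2 (-0.12) and Hspa1a (-0.10) with the covariate, for Sdhb (0.058) and Il15ra (-0.38) without the 3 libraries, and for the B cell sum, which ran from -0.18 to 0.063 with 1 library left out and was above 0 without CD27+CD69- replicate 1. Il15ra, near 0, was also reversed with DESeq2 (-0.00017), RLE factors (-0.00059) and limma-voom (-0.018), and ran from -0.17 to 0.19 with 1 library left out. Flt3l was reversed with the replicate block (0.033) and ran from -0.20 to 0.21 with 1 library left out. The causes were not tested.

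Same-numbered CD11b+CD69+ and CD27+CD69- libraries had deviations over the tested genes that correlated by -0.022 to 0.0063. No CD11b+CD69+ library correlated best with the CD27+CD69- library of its own number. This check did not cover the other populations and cannot exclude pairing. In CD27+CD69+ libraries melanoma markers were highest in replicates 6 and 4 (819 and 117 CPM), with 1.79 CPM in replicate 5. CD27+CD69- replicates 6, 4 and 5 held 10386, 1479 and 1246 CPM. With the replicate block 627 genes were called, 248 higher and 379 lower, and 400 screened genes, 244 higher and 156 lower, and Il2rb passed (adjusted p = 0.0440). Depth limits genes near the floor of 1.23 to 2.47 CPM, such as Il2ra and Ccl9 in CD27+CD69- libraries.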

Other observations

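The chymase gene Cma1, a mast cell protease gene that was singled out after its values were seen, was higher in CD11b+CD69+ libraries, at 58.2 to 99.5 CPM (median 74.4) against 13.2 to 38.1 CPM (median 22.0) in CD27+CD69- libraries. The ranges did not overlap, and the log2 difference was 1.67 (SE 0.45, adjusted p = 0.0235). The other mast cell and basophil markers gave no like pattern: Mcpt4, Mcpt8, Tpsb2, Fcer1a and Ms4a2 had 0 counts in both populations, and Kit, which less mature NK cells also express, was not called (-0.72, adjusted p = 0.709). Cpa3 was near the floor, with 14 counts against 23. The mast cell and basophil sum was 77.9 to 109 CPM against 34.7 to 70.0 CPM (exact permutation test, two-sided, adjusted p = 0.00722 over 10 marker lists), and 678 to 1167 CPM in CD11b+CD69- libraries, in which Cma1 was highest. The sums had medians of 93.7 and 49.9 CPM, where Cma1 alone had 74.4 and 22.0 CPM. The sum is therefore no separate measure of Cma1.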
